A study of Mus musculus with 106 samples.

Results

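The 59 genes described here encode enzymes that write or erase marks on histones and DNA, or core subunits of their complexes, and are called enzyme genes below. They were chosen by name, out of 21938 protein-coding genes with a start site on the chromosomes used. They fell into 12 classes, among them 9 H3K4 methyltransferases, 11 lysine demethylases, 8 acetyltransferases, 3 DNA methyltransferases and 3 TET dioxygenases. Their promoters were read in 70 peak lists from chromatin immunoprecipitation sequencing (ChIP-seq) of bone marrow cells, 35 lists for H3K27ac, a mark of active promoters and enhancers, and 35 for H3K4me3, a mark of promoters. Every list came from C57BL/6J mice, which were 12 to 14 weeks old when they were assigned to a group. Diabetic mice had received streptozotocin, which destroys insulin-producing cells, by intraperitoneal injection at 42 to 45 mg/kg per day over 5 days, were used when blood glucose exceeded 13.9 mmol/L, and gave tissue 6 weeks after the last dose; control mice were nondiabetic. The cells called haematopoietic stem cells (HSCs) were whole marrow depleted of cells bearing CD3, CD4, B220, Ter119 or Gr1, so they were a lineage-depleted mixture rather than sorted stem cells. Bone marrow-derived macrophages (BMDMs) from control and diabetic mice were all grown for 7 days in 5 mmol/L glucose medium with L929-conditioned medium, and were then kept for 16 hours in that medium alone or with lipopolysaccharide (LPS) at 100 ng/mL plus interferon-γ (IFN-γ) at 10 ng/mL. Each mark had 6 lists from each of the 6 groups, except for 5 from diabetic unstimulated BMDMs. The study's methods count each replicate as 1 animal. The labels do not tie libraries of different groups to the same animal, so groups were compared as independent.

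Histone methyltransferases, acetyltransferases and demethylases set the marks that open or close chromatin. Polycomb repressive complex 2 (PRC2) writes the repressive mark H3K27me3, which Kdm6a and Kdm6b remove. DNMT enzymes methylate cytosine and TET enzymes oxidise that methyl group. In blood formation, Dnmt3a and Tet2 restrain the self-renewal of stem cells, and Kat6a is needed to maintain them, while Kdm6b is a gene that macrophages switch on after LPS.

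The value used throughout is the promoter percentile. In each list, every gene took its strongest peak (by −log10 p, as the peak caller gave it) within 1000 bp of any annotated start site, and genes were then ranked from weakest to strongest, with 100 as the top. Genes without a peak shared the lowest rank, set at the mean of their tied ranks. The percentile of an absent peak is therefore higher in a library where fewer genes have one. The percentile compares genes within a library, so it does not measure the absolute amount of a mark, and a difference between groups is a difference in percentile points. In bulk samples, fewer cells carrying a mark and less mark per cell cannot be told apart.

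A few of these promoters recur in the results below and show how unlike they are in sequence. They include an upstream and an internal RefSeq promoter of Dnmt3a (a further upstream one, overlapping the first, is not shown), a gene whose windows differed between cell types or after stimulation. The Kdm5b promoter passed as higher in HSCs in diabetic mice alone, and that of Tet2 as lower in HSCs in control mice alone. Neither cell type difference is shown to differ between control and diabetic mice. The last sequence is an internal Hdac9 promoter. The window next to it had H3K4me3 in 6 of 6 control BMDM libraries and 0 of 6 control HSC libraries, whose lists were shorter at the median. Each is written 5′ to 3′ on the gene's own strand from 250 bases before to 50 bases after the RefSeq start site (GRCm38), with CpG dinucleotides in capitals.
Dnmt3a, upstream promoter, chr12:3806730-3807029, plus strand, 46 CpG: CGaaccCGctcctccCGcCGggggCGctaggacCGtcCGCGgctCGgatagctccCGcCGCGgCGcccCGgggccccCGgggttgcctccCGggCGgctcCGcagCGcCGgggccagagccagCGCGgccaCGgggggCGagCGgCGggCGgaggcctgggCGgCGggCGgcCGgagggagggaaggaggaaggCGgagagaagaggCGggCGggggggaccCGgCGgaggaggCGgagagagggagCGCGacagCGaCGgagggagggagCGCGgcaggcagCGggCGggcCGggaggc
Dnmt3a, internal promoter, chr12:3891494-3891793, plus strand, 18 CpG: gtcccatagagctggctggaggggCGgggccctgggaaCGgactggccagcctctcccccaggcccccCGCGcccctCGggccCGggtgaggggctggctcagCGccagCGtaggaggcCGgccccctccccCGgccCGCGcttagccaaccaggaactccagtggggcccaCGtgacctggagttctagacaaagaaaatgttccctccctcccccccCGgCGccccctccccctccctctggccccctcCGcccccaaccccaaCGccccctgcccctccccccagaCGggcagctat
Tet2, chr3:133544341-133544640, minus strand, 57 CpG: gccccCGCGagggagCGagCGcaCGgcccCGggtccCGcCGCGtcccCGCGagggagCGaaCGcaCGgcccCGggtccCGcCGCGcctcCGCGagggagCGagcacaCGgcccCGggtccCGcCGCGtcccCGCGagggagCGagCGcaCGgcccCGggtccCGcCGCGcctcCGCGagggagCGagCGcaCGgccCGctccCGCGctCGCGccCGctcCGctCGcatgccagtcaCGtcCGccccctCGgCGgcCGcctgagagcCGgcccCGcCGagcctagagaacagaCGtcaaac
Kdm5b, chr1:134559928-134560227, plus strand, 17 CpG: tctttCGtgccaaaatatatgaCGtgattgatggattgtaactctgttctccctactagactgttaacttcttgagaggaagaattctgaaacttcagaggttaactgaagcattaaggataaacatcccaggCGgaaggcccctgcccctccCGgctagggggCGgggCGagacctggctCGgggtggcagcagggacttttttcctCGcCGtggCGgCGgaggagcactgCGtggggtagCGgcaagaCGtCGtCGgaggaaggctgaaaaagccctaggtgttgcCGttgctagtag
Hdac9, internal promoter, chr12:34528840-34529139, minus strand, 3 CpG: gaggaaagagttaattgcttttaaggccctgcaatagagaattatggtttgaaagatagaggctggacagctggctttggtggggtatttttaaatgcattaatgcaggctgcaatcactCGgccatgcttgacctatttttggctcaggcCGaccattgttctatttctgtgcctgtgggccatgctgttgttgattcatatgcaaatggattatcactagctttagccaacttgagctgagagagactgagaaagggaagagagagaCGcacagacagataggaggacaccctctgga

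Of the 59 genes, 45 matched a RefSeq promoter table of the same build, with 64 promoters of 300 bases in all. The median member promoter held 23.5 CpG (range 0 to 57), against 7 over all 32851 promoters in the table. A GC box (GGGCGG, either strand) was present in 62.5% of the 64 promoters and in 35.7% of all promoters. Motifs of blood cell factors were searched on both strands. The Runx motif TGTGGT was found in 12.5% of member promoters and in 16.8% of all promoters, the PU.1 motif GAGGAAG in 15.6% and 13.6%, the ETS motif CCGGAAG in 10.9% and 8.86%, and the AP-1 motif TGACTCA in 10.9% and 5.2%. These shares describe letters in these windows and not binding. Ash1l, Carm1, Hdac1, Hdac3, Kat6a, Kdm2a, Kdm4b, Kdm5a, Kdm6b, Kmt2b, Kmt2e, Nsd1, Setd1b and Smyd3 had no matched entry.

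The libraries behind these values differed in length. H3K27ac lists held 51162 to 176559 peaks and H3K4me3 lists 13730 to 277213, and read totals were not given in the files, so the depth of a library is unknown. In a check of the labels, the 409 promoters whose H3K27ac passed the test after LPS+IFN-γ in diabetic BMDMs were scored as the mean percentile of the 172 that rose minus that of the 237 that fell. In control BMDMs, stimulated replicate 5 scored −15.9 while the other 5 scored −0.933 to 14.9, and unstimulated replicates 5 and 6 scored 0.979 and −2.38 while the others scored −23.8 to −5.49. Stimulated replicate 5 thus lay within the unstimulated range and unstimulated replicate 5 within the stimulated range, while unstimulated replicate 6 lay between the groups. Results that these 3 libraries, called atypical below, change are given with and without them. The score was built from promoters that responded to stimulation, Dnmt3a among them. Leaving these libraries out therefore favours a stimulation response in control BMDMs, and values without them are no independent check of one. For H3K27ac, 11 stem and progenitor genes had a mean percentile of 57.4 to 61.2 in HSC libraries and 41.6 to 53.7 in unstimulated BMDM libraries. The 11 macrophage genes had 29.1 to 40.1 in HSCs and 51.6 to 71.8 in unstimulated BMDMs. The erythroid list, of which 5 of 6 genes were found, had 50.1 to 70.3 in HSCs and 36.3 to 42.1 in unstimulated BMDMs, with peaks at all 5 genes in every HSC library, and its part in the cell type differences was not tested. For H3K4me3 the stem and progenitor list did not separate the cell types, at 61.6 to 73.3 in HSCs and 62.2 to 75.2 in unstimulated BMDMs.

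Promoters of the enzyme genes carried both marks in nearly every library. An H3K27ac peak was present in all 35 libraries for 55 of 59 genes, against 47% of all protein-coding genes, and an H3K4me3 peak in all 35 for 46 of 59, against 36.9%. No member lacked either mark throughout. The median member stood at percentile 80.7 for H3K27ac and 80.2 for H3K4me3, and 56 of 59 members stood above 50 for each mark. A gene with more start sites has more places for a peak. With start sites less than 2000 bp apart joined into windows, the 59 members had 238 windows, where all 21938 genes had 44473. The part of this in the shares and percentiles was not tested. The shortfall in H3K4me3 lay mostly in 1 library, diabetic HSC replicate 6, which had the shortest list (13730 peaks) and a peak at 48 of the members where the median of its group was 58.5. Without it, the number with H3K4me3 in every library was 55.

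Kdm6b, the H3K27me3 demethylase, had H3K4me3 in 27 of 35 libraries. Prmt5, which dimethylates arginine symmetrically, had it in 29 of 35. Suv39h1, a methyltransferase of H3K9 in heterochromatin, had it in 33 of 35. A further 10 genes lacked it in 1 library each, namely the demethylases Kdm1a, Kdm4a, Kdm4b and Kdm5c, the deacetylases Hdac1, Hdac3, Sirt1 and Sirt6, the arginine methyltransferase Prmt1 and the dioxygenase Tet1. For H3K27ac, Prmt5, Kdm6b, Hdac9 and Tet1 each lacked a peak in 1 of 35 libraries, and those libraries belonged to 4 different groups.

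**Figure D1:**
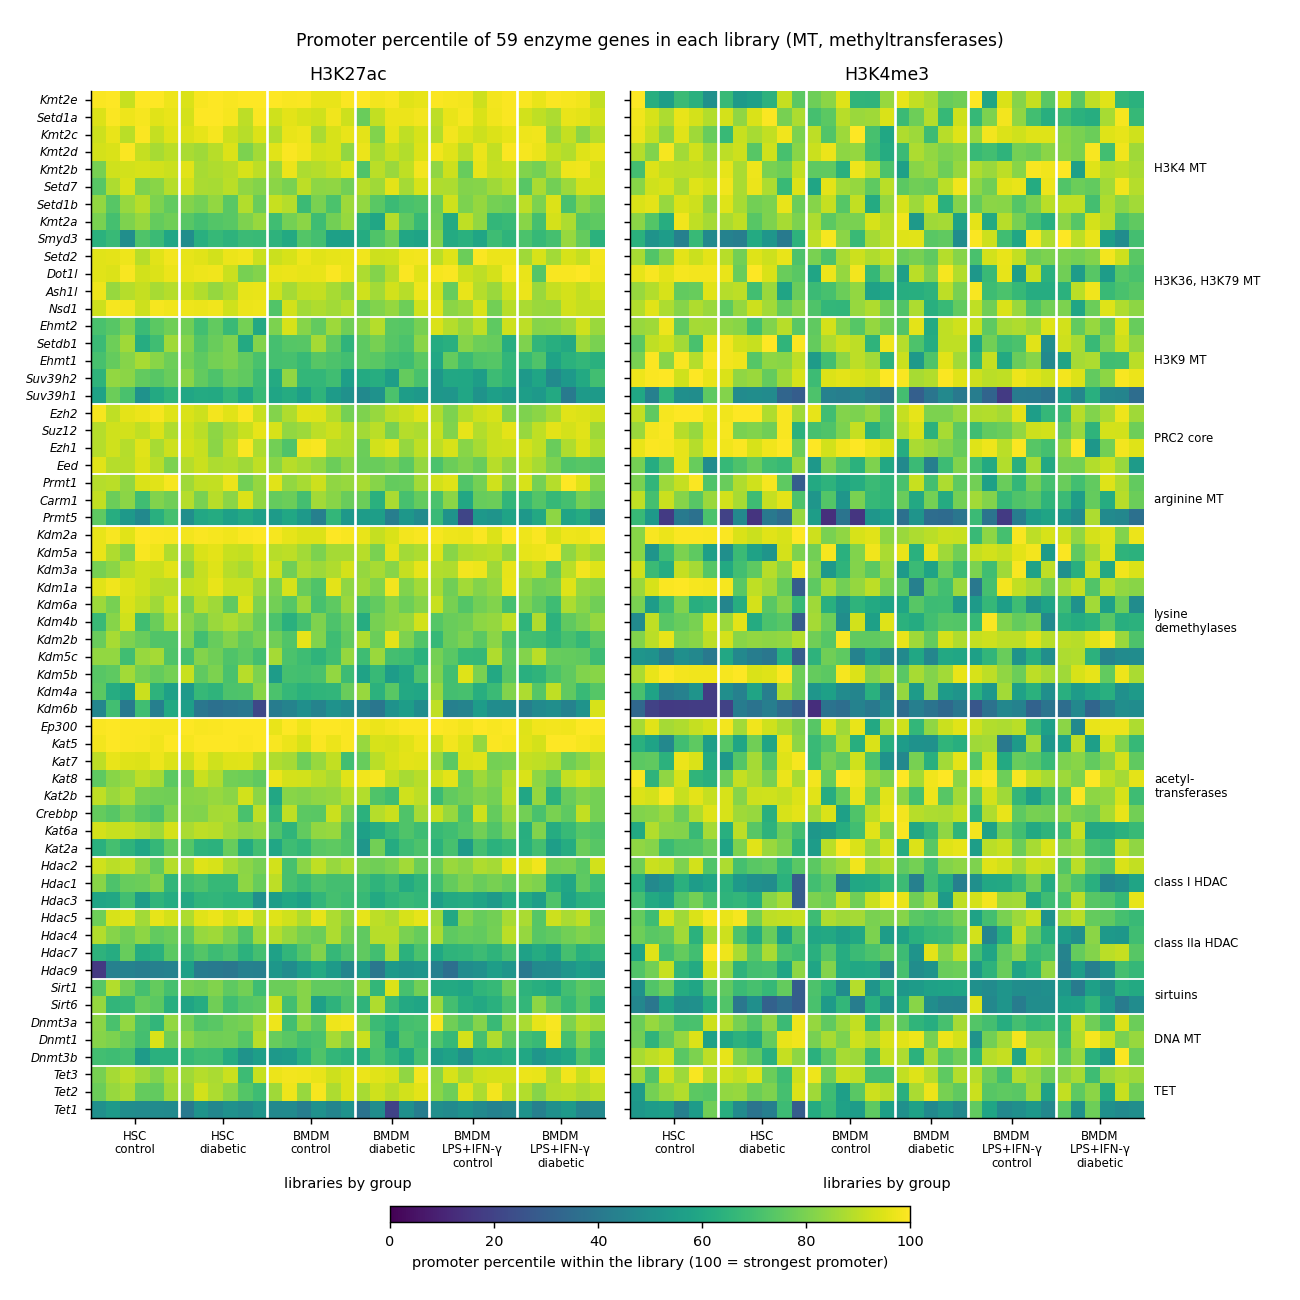
Promoter percentile (colour, 0 to 100) of the 59 enzyme genes (lines of the grid, by class) in each library (columns, by group) for H3K27ac and H3K4me3. Most cells are green to yellow, the Kdm6b line is dark for H3K4me3, and the last column of the diabetic HSC block for H3K4me3, replicate 6, has the most dark cells.

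The classes differed in rank, and the marks did not order them alike. For H3K27ac the 4 methyltransferases of H3K36 and H3K79 had the highest median percentile at 92.2 (range 89.6 to 94.3), followed by the 9 H3K4 methyltransferases at 89.5 and the 4 PRC2 core genes at 89.5. The 2 sirtuins stood at 72, the 5 H3K9 methyltransferases at 72.4 and the 3 class I deacetylases at 72.7. For H3K4me3 the PRC2 core genes were highest at 84.7, and the sirtuins lowest at 56.1 (52.9 and 59.3). The 8 acetyltransferases had 84 for H3K27ac and 82.9 for H3K4me3. The classes hold 2 to 11 genes each and overlapped widely in range, so this order is a description.

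Single genes stood at the extremes of each mark. Ep300, an acetyltransferase that itself deposits H3K27ac, had the highest H3K27ac percentile at 98.9 (group means 98.1 to 99.6), ahead of Kmt2e at 98, an H3K4 methyltransferase family member, and the demethylase Kdm2a at 97.6. The lowest were Tet1 at 46.9, Hdac9 at 47.4 and Kdm6b at 49.7. For H3K4me3 the highest were the H3K9 methyltransferase Suv39h2 at 92.2, Kdm2a at 90.6 and the PRC2 subunit Ezh1 at 89.8, and the lowest were Kdm6b at 35, Prmt5 at 44.5 and Suv39h1 at 47. The marks ranked some genes unequally. Suv39h2 stood at 67 for H3K27ac, 25.2 points under its H3K4me3 percentile, and the acetyltransferase Kat5 stood at 96.9 for H3K27ac and 68.3 for H3K4me3. At 8 members, a start site of another gene lay close by, for instance Hdac3 and Rell2 at 63 bp, Kdm5a and Ccdc77 at 84 bp, and Kat5 and Rnaseh2c at 1556 bp, and a peak there could not be assigned to one gene.

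The first comparison asked whether enzyme promoters ranked differently in HSCs and in unstimulated BMDMs. In control mice, H3K27ac differed at 7 of 59 genes (limma over all genes, Benjamini-Hochberg adjusted p under 0.05), where 15.5% of all 17373 genes tested did. Of these, 3 were higher in HSCs, a direction found in 7.51% of all genes, and 4 were lower, as were 7.96% of all genes. In diabetic mice 6 of 59 differed against a background of 15.3%, with 5 higher (6.95% of all genes) and 1 lower (8.33%). Leaving out 1 library moved these counts over 5 to 9 in control and 3 to 6 in diabetic mice. The members' share is therefore not shown to differ from that of all genes. Over all 59 genes the median difference was 1.14 points in control and 2.55 in diabetic mice, beside 0.358 and 0.386 over all genes.

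Among the genes higher in HSCs, Kat6a had the largest difference in both disease groups. Its acetyltransferase is a regulator of Hox genes that blood stem cells need. In control mice the 6 HSC libraries ran from 85.4 over a median of 91.7 to 93.7, and the 6 BMDM libraries from 65.4 over 74.1 to 84.7. No HSC library fell within the BMDM range, and the difference was 15 ± 3.45 points (SE; limma adjusted p = 0.00211). In diabetic mice the HSC libraries ran from 82.6 over 86.2 to 90.1, and the BMDM libraries from 56.9 over 67.3 to 72.4. The groups were again apart, by 21 ± 3.62 points (adjusted p = 6.7e-05). Among its promoter windows, the one at its most upstream start site, chromosome 8, base 22859535, carried this difference.

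Nsd1, which methylates H3K36, was also higher in HSCs in both disease groups. In control mice the HSC libraries ran from 92.3 over 98.0 to 98.8 and the BMDM libraries from 72.7 over 87.2 to 93.0, which overlapped at their edges. The difference was 10.5 ± 2.97 points (limma adjusted p = 0.0126), a call that was lost without BMDM replicate 1 (0.0533, with 0.00692 to 0.257 over all alternatives). In diabetic mice it was 13.9 ± 3.12 (adjusted p = 0.00162), with HSC libraries at 92.9 to 97.8 and BMDM libraries at 77.3 to 92.9, where the highest BMDM library lay just under the lowest HSC library. Kat7, an acetyltransferase of H3K14 found in complexes related to those of Kat6a, passed in control mice (11.8 ± 3.5, adjusted p = 0.0176), where HSC libraries ran from 89.9 over 94.9 to 97.6 and BMDM libraries from 69.6 over 85.7 to 91. That call was lost without BMDM replicate 6 (0.0728) and without the 3 atypical libraries (0.0536, with 0.00954 to 0.157 over all alternatives). In diabetic mice the Kat7 difference was 3.32 ± 3.68.

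Kdm5b, Eed and Kat5 passed in diabetic mice alone. Kdm5b removes H3K4 methylation. Its diabetic HSC libraries ran from 71.3 over 80.2 to 91.7 and its diabetic BMDM libraries from 55.4 over 60 to 72.2, overlapping slightly, with a difference of 18.9 ± 4.87 points (limma adjusted p = 0.00595), and in control mice it was 8.55 ± 4.65. Eed, the PRC2 subunit that binds H3K27me3, was higher by 10.3 ± 3.31 (adjusted p = 0.0283), with HSC libraries at 85.8 to 91.9, all above BMDM libraries at 74.9 to 84, and in control mice by 6 ± 3.16. Kat5 was near the top of the scale in diabetic HSCs, at 98.5 to 99.9, all above the diabetic BMDM libraries at 84.5 to 97.7, with a difference of 6.46 ± 2.23 (adjusted p = 0.0427). The Eed call was lost without BMDM replicate 1, 2 or 5 or HSC replicate 2 or 6 (0.0535 to 0.0696, with 0.0119 to 0.294 over all alternatives). The Kat5 call was lost without BMDM replicate 1, 2 or 4 or any 1 of the HSC replicates (0.0525 to 0.197, with 0.0236 to 0.197 over all alternatives). The difference between the disease groups in these cell type effects was tested itself for all members and passed at none (adjusted p = 1 for Kdm5b, Eed and Kat5), so they are not shown to differ between control and diabetic mice.

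The genes lower in HSCs included a pair of the 3 TET dioxygenases. Tet3 ran from 79.3 over 86.1 to 90.2 in control HSCs and from 92.5 over 96.9 to 98.4 in control BMDMs, so every BMDM library lay above every HSC library (−11.1 ± 3.06, limma adjusted p = 0.00992). Tet2, whose loss expands blood stem cells, ran from 76 over 81.1 to 87.2 and from 84.7 over 91 to 98.7 (−10.2 ± 3.51, adjusted p = 0.0417), with overlap at the edges. In diabetic mice the differences were −7.94 ± 3.21 and −10.2 ± 3.68, with adjusted p of 0.0898 and 0.0532. The control Tet2 call was lost without BMDM replicate 2, 4 or 6 or HSC replicate 1, 4 or 5 (0.0816 to 0.108, with 0.0162 to 0.604 over all alternatives), and it was lost without the 3 atypical libraries (0.0741). Tet1 was at or below percentile 54.4 in every H3K27ac library.

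Kat8, which acetylates H4K16, was the gene lower in HSCs in both disease groups. Control HSC libraries ran from 74.8 over 83.5 to 90 and control BMDM libraries from 87.3 over 93.3 to 97.1 (−10.5 ± 3.42, limma adjusted p = 0.0314). In diabetic mice the difference was −10.6 ± 3.58 (adjusted p = 0.0377), and the groups overlapped in both. The control Kat8 call was lost without BMDM replicate 1, 2 or 6 or HSC replicate 1 or 6 (0.0521 to 0.089, with 0.0184 to 0.654 over all alternatives) and without the 3 atypical libraries (0.051), and the diabetic one without BMDM replicate 1, 2 or 4 or HSC replicate 1, 4, 5 or 6 (0.0514 to 0.11, with 0.0155 to 0.207 over all alternatives). Hdac9, a class IIa deacetylase, passed in control mice (−13.7 ± 4.3, adjusted p = 0.0246), where HSC libraries ran from 16.6 over 43.8 to 44.5 and all lay under the BMDM libraries at 45.6 over 53.6 to 61.1. The low HSC value was replicate 1, which had no peak, and without that library the adjusted p was 0.118 (0.0201 to 0.49 over all alternatives), as it was 0.0647 without BMDM replicate 4.

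**Figure D2:**
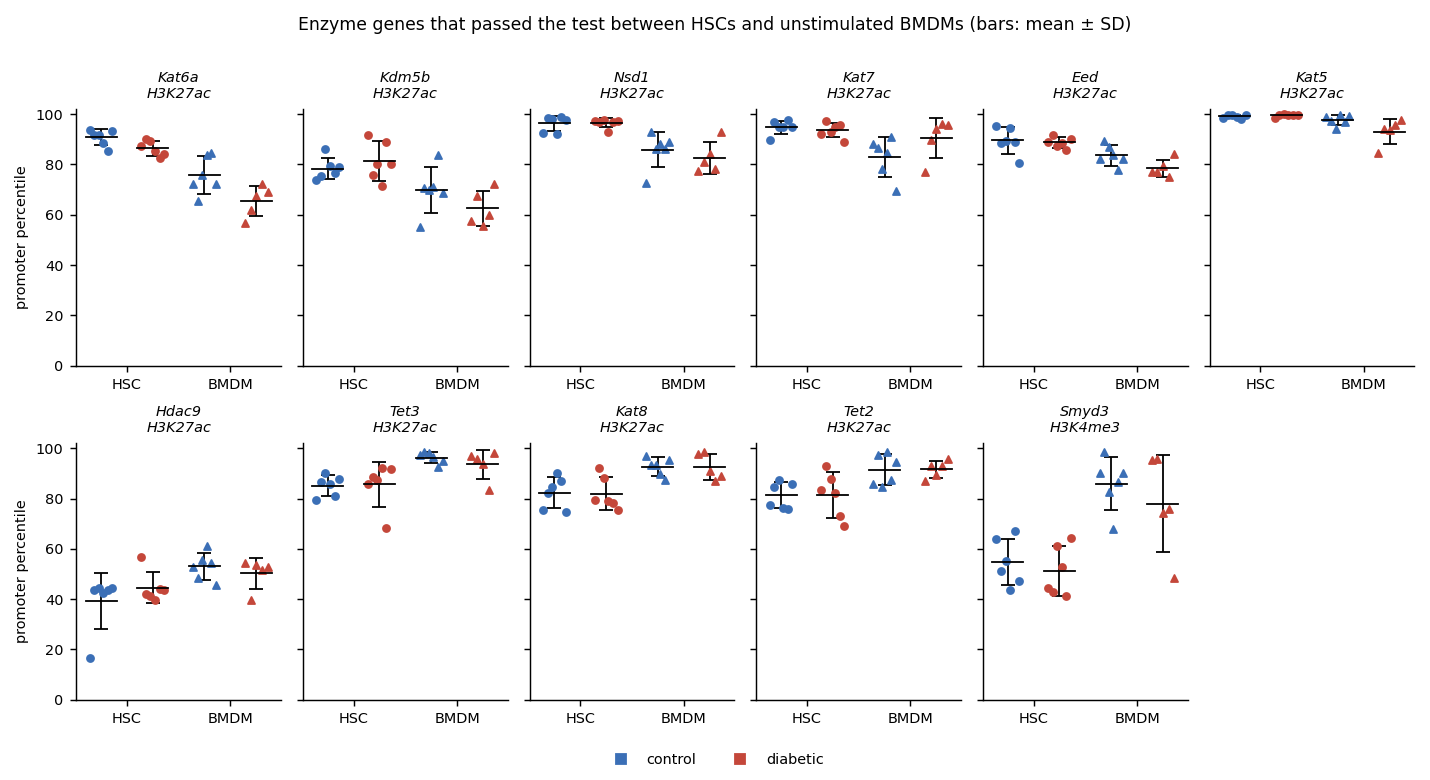
Promoter percentile (vertical axis) of the 11 enzyme genes that passed in at least 1 comparison of HSCs (circles) with unstimulated BMDMs (triangles), in control (blue) and diabetic (red) mice, with mean ± SD. For Kat6a, all HSC points lie above all BMDM points of the same disease group, and for Tet3 in control mice all lie below.

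The groups did not overlap at 3 genes in control mice (Hdac9, Kat6a and Tet3), where 6.69% of all genes tested did not overlap, and at 4 genes in diabetic mice (Eed, Kat5, Kat6a and Nsd1), where the share was 9.92%. Kat6a, Nsd1 and Kat8 passed in both disease groups. By class, the 4 PRC2 genes and the 3 arginine methyltransferases had a positive H3K27ac difference in each disease group, as had 9 of the 11 demethylases, with medians of 4.69 and 5.18, 3.95 and 6.44, and 5.71 and 2.89 points. These are counts of signs, and among the 18 genes 1 PRC2 gene and 1 demethylase passed, in diabetic mice. Among the 8 acetyltransferases, Kat6a, Kat7 and Kat5 were higher in HSCs in at least 1 disease group and Kat8 was lower.

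**Figure D3:**
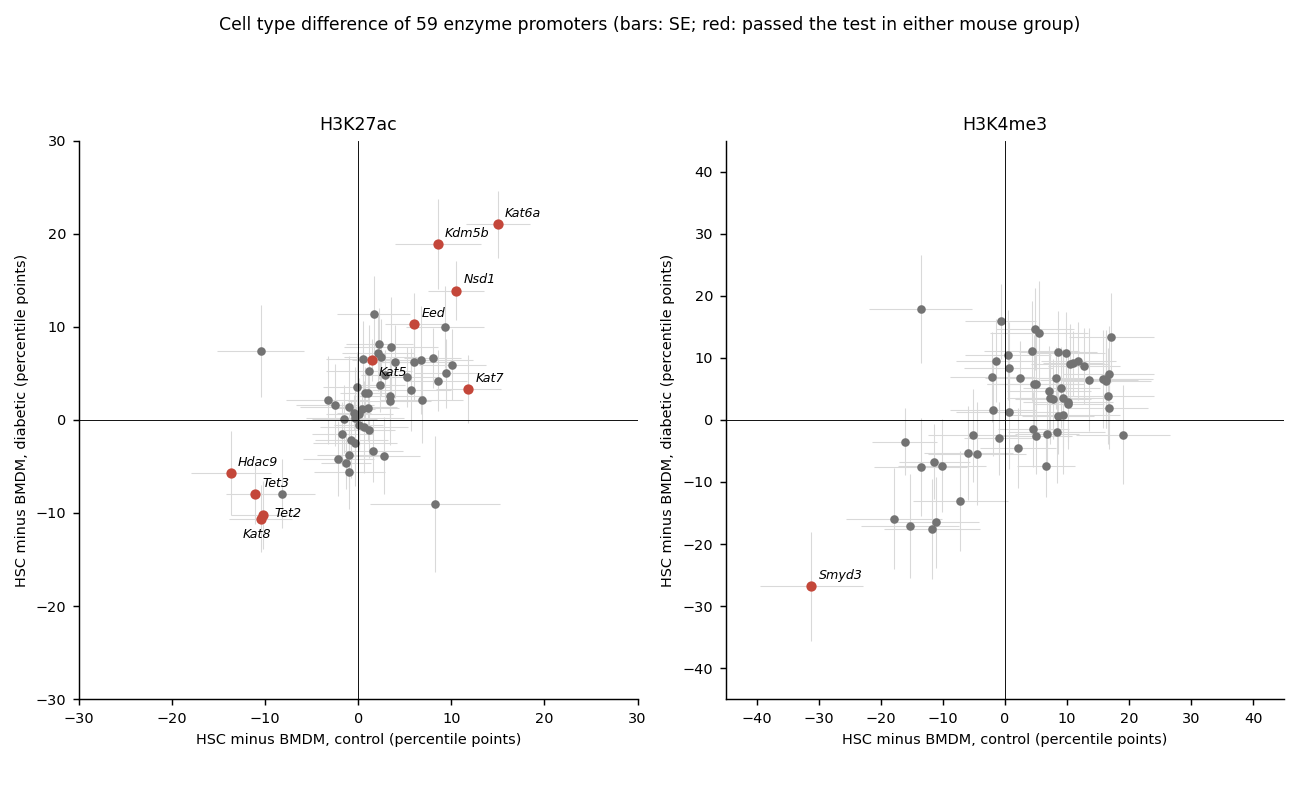
Difference in promoter percentile between HSCs and unstimulated BMDMs (percentile points) in control (horizontal) and diabetic mice (vertical) for the 59 enzyme genes, with SE bars and, in red, genes that passed in either disease group. Kat6a, Kdm5b and Nsd1 lie farthest to the upper right for H3K27ac, and Smyd3 lies at −31.2 and −26.8 for H3K4me3.

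H3K4me3 gave fewer differences between the cell types. In control mice 1 of 59 genes passed, where 5.15% of 17652 genes did. It was Smyd3, a methyltransferase first described for H3K4 that also acts on cytoplasmic proteins. Its HSC libraries ran from 43.7 over 53.1 to 67.2 and its BMDM libraries from 67.7 over 88.4 to 98.6, without overlap (2.87% of all genes were so apart), and the difference was −31.2 ± 8.37 points (limma adjusted p = 0.0242). In diabetic mice it was −26.8 ± 8.78 (adjusted p = 0.114), with HSC libraries at 41.2 to 64.5 and BMDM libraries at 48.6 to 95.7, and 0 of 59 genes passed by limma, against 0.3% of all genes, with 7 at an unadjusted p under 0.05. Smyd3 H3K27ac differed by −0.349 ± 4.48 points in control and −2.44 ± 4.7 in diabetic mice, and neither passed. In the control comparison Smyd3 lost its call without unstimulated BMDM replicate 2 or 6 or HSC replicate 2 or 6 (adjusted p 0.0516 to 0.0636, with 0.0156 to 0.153 over all alternatives). In diabetic mice the H3K4me3 groups did not overlap at 1 gene, Kdm2a, against 2.55% of all genes. By class, the 4 class IIa deacetylases and the 4 methyltransferases of H3K36 and H3K79 all had a positive H3K4me3 difference in each disease group, with medians of 12.6 and 6.54 and of 14.1 and 6.52 points, and the 3 class I deacetylases all had a negative one, with medians of −5.92 and −5.31. These genes did not pass.

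Kdm6b was the member whose H3K4me3 was most often absent. In control HSCs, 1 of 6 libraries had a peak, at percentile 33.6, and the others shared the lowest rank at 16.8 to 19.6. In control unstimulated BMDMs 5 of 6 libraries had one, and in each stimulated group all 6 did. Between control HSCs and BMDMs presence did not pass (Fisher's exact test, two-sided, p = 0.0801, adjusted p = 0.156), in a comparison where 34.5% of the 1354 genes that could pass did so. The percentile itself was lower in HSCs by 16.2, with an SE of 5.18 and a limma adjusted p of 0.0518.

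Most members have several start sites far apart, and the gene's strongest peak can hide which of them was marked. Start sites less than 2000 bp apart were joined into windows, 238 in all for the 59 genes, of which 53 had several. In control mice, H3K27ac differed between HSCs and unstimulated BMDMs at 24 of 154 tested windows, in 17 genes, where 12.1% of all windows did, with 7 higher in HSCs and 17 lower. In diabetic mice it differed at 15 windows in 12 genes (11.1% of all windows), with 6 higher and 9 lower. Windows without a peak share the lowest rank, so these differences mostly record presence of a peak. H3K27ac lists of control HSCs held 100045 to 139452 peaks and those of control BMDMs 54408 to 169361. Diabetic HSC lists held 51162 to 130995 and diabetic BMDM lists 54313 to 175991. Some calls, given below for Kmt2b, were lost with lists of equal length.

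Dnmt3a, the enzyme that sets new DNA methylation, had 9 windows, the most of any member together with Kdm2b and Ehmt1, along its 108437 bp on chromosome 12 (plus strand, GRCm38). Its upstream window from base 3806007, which holds the first sequence above, ranked alike in HSCs and BMDMs, with group means of 82.1 to 85.9 over all 6 groups. Inside the gene the picture was different. The window at 3906816, 100809 bp downstream, had an H3K27ac peak in 0 of 6 control HSC libraries and 1 of 6 diabetic ones, but in 6 of 6 control and 5 of 5 diabetic BMDM libraries (−44.9 ± 5.34 points in control mice, limma adjusted p = 7.06e-08, and −39.9 ± 5.6 in diabetic mice, 2.34e-06). The window at 3866191, 60184 bp downstream, had it in 0 of 6 and 1 of 6 HSC libraries, and in 6 of 6 and 4 of 5 BMDM libraries (−52.7 ± 7.24, 1.19e-06, and −29.2 ± 7.6, 0.00803).

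Other internal Dnmt3a windows that passed were also lower in HSCs, though not all of them in both disease groups. The windows at 3849635 and 3861021 did not pass for H3K27ac between the cell types. At 3900281 the differences were −42.6 ± 6.29 in control mice (limma adjusted p = 4.39e-06) and −28.7 ± 6.6 in diabetic mice (0.00264). At 3894824 they were −21.3 ± 4.93 (0.00271) and −34.2 ± 5.17 (8.02e-06), and all 6 control HSC libraries had a peak there. Without the 3 atypical libraries, the control difference at 3894824 was −16.3 points (0.0502). At 3885449 the difference was −30.7 ± 9.45 in control mice (0.0255) and −7.33 ± 9.91 in diabetic mice, and the control call was lost without BMDM replicate 1 or 2 (0.0648 and 0.0574). The window at 3891728, which holds the second Dnmt3a sequence, was marked in every library of both cell types and did not pass between them (−2.93 ± 2.46 and 6.51 ± 2.58). The annotation gives these internal start sites to Dnmt3a transcripts, and whether a peak there marks a promoter or an enhancer cannot be read from it.

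**Figure D4:**
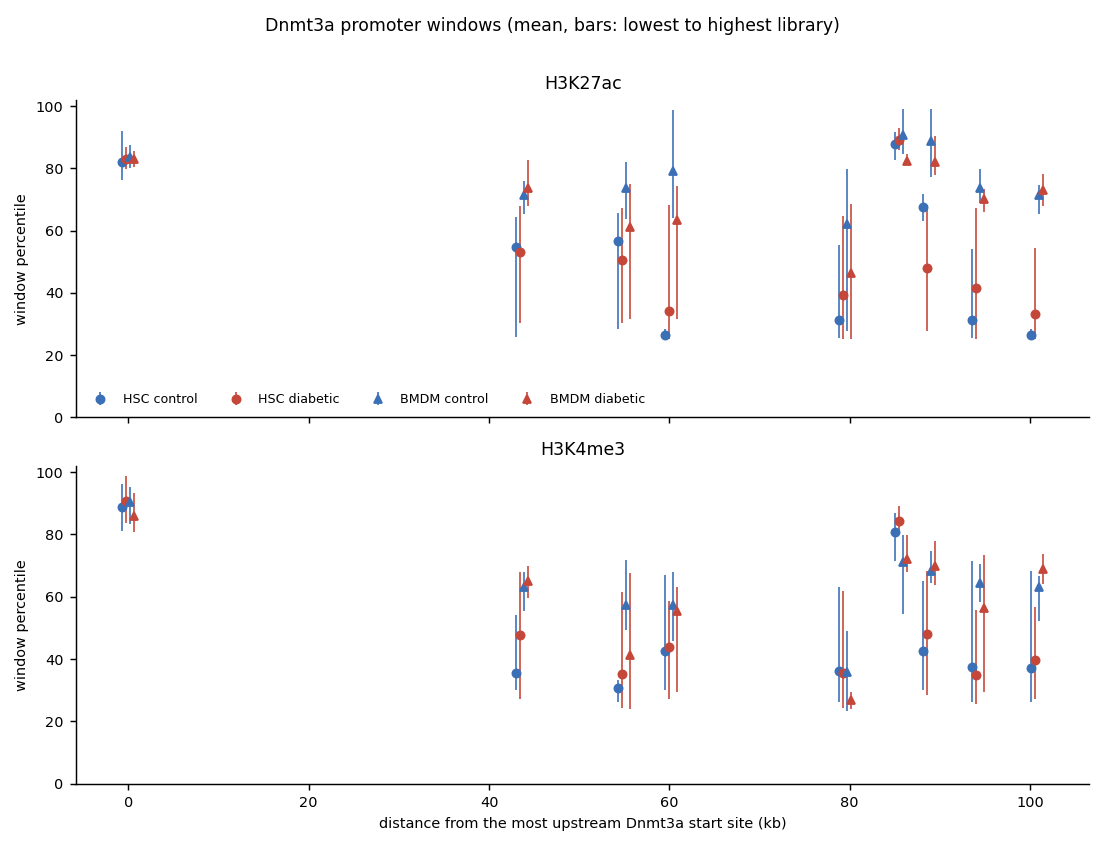
Percentile among all promoter windows (vertical axis; mean, bars from the lowest to the highest library) of the 9 Dnmt3a windows against their distance from the most upstream start site (kb), in HSCs (circles) and unstimulated BMDMs (triangles) of control (blue) and diabetic (red) mice. The HSC and BMDM points coincide at distance 0 and lie far apart for H3K27ac at the windows 60184, 94274 and 100809 bp downstream.

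For H3K4me3, 8 of 149 tested member windows passed in control mice, in 5 genes and all lower in HSCs. Of all windows 5.2% passed, a share of both directions together that was not split, so the direction is not read as particular to these genes. Among the 8, 4 were internal Dnmt3a windows, and the others belonged to Hdac5, Hdac9, Kdm2b and Smyd3. The Hdac9 window at base 34528304, next to the Hdac9 sequence above, had H3K4me3 in 0 of 6 control HSC libraries and 6 of 6 control BMDM libraries (−28.2 ± 7.32, limma adjusted p = 0.0194, and 0.0506 without BMDM replicate 2). Its H3K27ac was present in 0 of 6 control and 0 of 6 diabetic HSC libraries and in 4 of 6 and 3 of 5 BMDM libraries. List length moved with this comparison, since control HSC lists held 37378 to 109214 H3K4me3 peaks (median 49624) and control BMDM lists 81003 to 212718 (median 161118), and with all lists limited to the same number of peaks 1 window passed. In diabetic mice 0 windows passed by limma, against 0.504% of all windows.

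Kdm6b lies on chromosome 11 (minus strand) with 2 start sites 9460 bp apart, and the 2 cell types differed in which of them carried H3K27ac. At the upstream site, base 69413675, an H3K27ac peak was present in 6 of 6 control HSC libraries and 2 of 6 control BMDM libraries (35 ± 9.88 points, limma adjusted p = 0.0145). At the downstream site, base 69404215, it was present in 2 of 6 and 5 of 6 (−25.5 ± 7.64, 0.0215). In diabetic mice the signs were the same, with 4 of 6 against 0 of 5 at the upstream site (27.8 ± 10.4, 0.074) and 4 of 6 against 5 of 5 at the downstream site (−19 ± 8.02, 0.126), and neither passed. Without the 3 atypical libraries, the control differences were 28.9 (0.0924) and −20.8 points (0.134), and the downstream call was also lost without BMDM replicate 5 or 6 or HSC replicate 1 or 2 (0.0502 to 0.0523). H3K4me3 was seen at the downstream site and at the upstream site in no library of any group.

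Other members showed the same kind of difference at single windows. Kmt2d, an H3K4 methyltransferase of enhancers, had an H3K27ac peak at base 98837164 in 6 of 6 control and 5 of 6 diabetic HSC libraries and in 1 of 6 and 1 of 5 BMDM libraries (33.9 ± 7.74, limma adjusted p = 0.00229, and 25.3 ± 8.12, 0.0353). The diabetic Kmt2d call was lost without BMDM replicate 1, 4, 5 or 6 or HSC replicate 3, 4, 5 or 6 (0.0526 to 0.103). Kmt2b, a methyltransferase of promoter H3K4, had the reverse at 2 internal windows in control mice, with 0 of 6 HSC libraries against 6 of 6 BMDM libraries at base 30577164 (−35.7 ± 8.29) and against 5 of 6 at base 30585074 (−32.9 ± 8.3). Its upstream window at 30588717 was marked in every library at group means of 93.5 to 95.4. With lists of equal length neither internal Kmt2b window passed (−16.6 and −17.8 points). The H3K9 methyltransferase Ehmt2 was lower in HSCs at base 34905203 in both disease groups (−25 ± 6.88 and −32.8 ± 7.22), and the control call was lost without the 3 atypical libraries (0.0629).

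H3K27ac inside the gene body, farther than 1000 bp from any start site, was a separate readout for 57 members with enough peaks. In control mice it differed between HSCs and BMDMs at 4 of them, where 10.8% of all genes did. Kat2b, Carm1 and Kdm5b were higher in HSCs, by 29.5 ± 8.26, 36.3 ± 8.38 and 34.2 ± 9.03 points. Kat2b is the acetyltransferase PCAF and Carm1 a coactivator that methylates H3 arginine. Dnmt1, which copies DNA methylation after replication, was lower, by an estimate of −18.6 ± 2.94 (limma adjusted p = 3.15e-05), with HSC libraries at 69 to 91 and BMDM libraries at 95.2 to 98.7. In diabetic mice 12 of 57 passed (21.1%) against 11.5% of all genes, a share of both directions together that was not split. They were the 4 above and Ash1l, Kdm2b, Kat6a, Kdm4a, Sirt6, Suv39h1, Tet2 and Dot1l, the last 8 all lower in HSCs. Kat6a thus ranked higher in diabetic HSCs at its promoter (21 points) and lower in its body (−32.7 ± 6.66). The control Kat2b call was lost without BMDM replicate 5 (24.2 points, 0.0506) and without the 3 atypical libraries (19.6 points, 0.166), and the diabetic Carm1 call without BMDM replicate 2, 5 or 6 or any 1 of the HSC replicates (0.0506 to 0.214). The diabetic Tet2 body call held in 4 of 16 alternatives (adjusted p 0.0195 to 0.389), Ash1l in 6 of 16 (0.0216 to 0.204), Suv39h1 in 12 of 16 (0.00625 to 0.253) and Kdm4a in 13 of 16 (0.00679 to 0.142). Among single libraries, Tet2 was lost without any 1 of the BMDM replicates or without HSC replicate 1 or 3, Ash1l without BMDM replicate 1, 2, 4 or 6 or HSC replicate 1, 3 or 6, Suv39h1 without BMDM replicate 2 or 6, and Kdm4a without HSC replicate 6, where its difference was −8.62.

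The next comparison asked whether 16 hours of LPS+IFN-γ moved the enzyme promoters. In diabetic BMDMs 1 of 59 genes passed for H3K27ac, where 2.35% of all genes did. It was Dnmt3a. Unstimulated diabetic replicates 1, 2, 4, 5 and 6 stood at 81, 68.1, 63.8, 70.5 and 71.4, and stimulated replicates 1 to 6 at 87.2, 96.1, 99, 80.7, 88.6 and 85.8. All stimulated libraries but replicate 4 lay above every unstimulated one, and the difference was 18.6 ± 4.92 points (limma adjusted p = 0.0331). The call was lost without stimulated replicate 1, 2 or 3 or unstimulated replicate 2, 4, 5 or 6 (adjusted p 0.0508 to 0.106, with 0.0182 to 0.305 over all alternatives).

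Of all member windows 1 passed in this comparison, which called 1.22% of windows, and it was the internal Dnmt3a promoter at base 3891728. Stimulated diabetic libraries ran from 88.2 to 99.1 there and unstimulated ones from 81.5 to 84.7, without overlap (10.6 ± 2.58, limma adjusted p = 0.0277), and the call was lost without stimulated replicate 3 (0.11) or unstimulated replicate 4, 5 or 6 (0.0539 to 0.0656). Other internal windows had estimates as large that did not pass, with 10.9 ± 5.17 at 3894824, 13.5 ± 7.6 at 3866191, 14.5 ± 6.98 at 3861021 and 13.9 ± 9.91 at 3885449, and the upstream window differed by −0.0171 ± 2.33. In control BMDMs the gene's difference after stimulation was −6.43 ± 4.69 points. Unstimulated control replicates stood at 97.6, 69.8, 82.9, 75.1, 97.4 and 98.4 and stimulated ones at 98.8, 78.4, 72.9, 81.6, 67.7 and 83.2. The unstimulated values of 97.4 and 98.4 and the stimulated value of 67.7 came from the 3 atypical libraries. Without them the control difference turned to 1.63 points (adjusted p = 0.962), and the Dnmt3a difference in diabetic BMDMs stayed at 18.6 (0.0182). Dnmt3a is itself among the promoters of the score that set these libraries apart, so the control change is no independent result. No diabetic library was left out here.

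**Figure D5:**
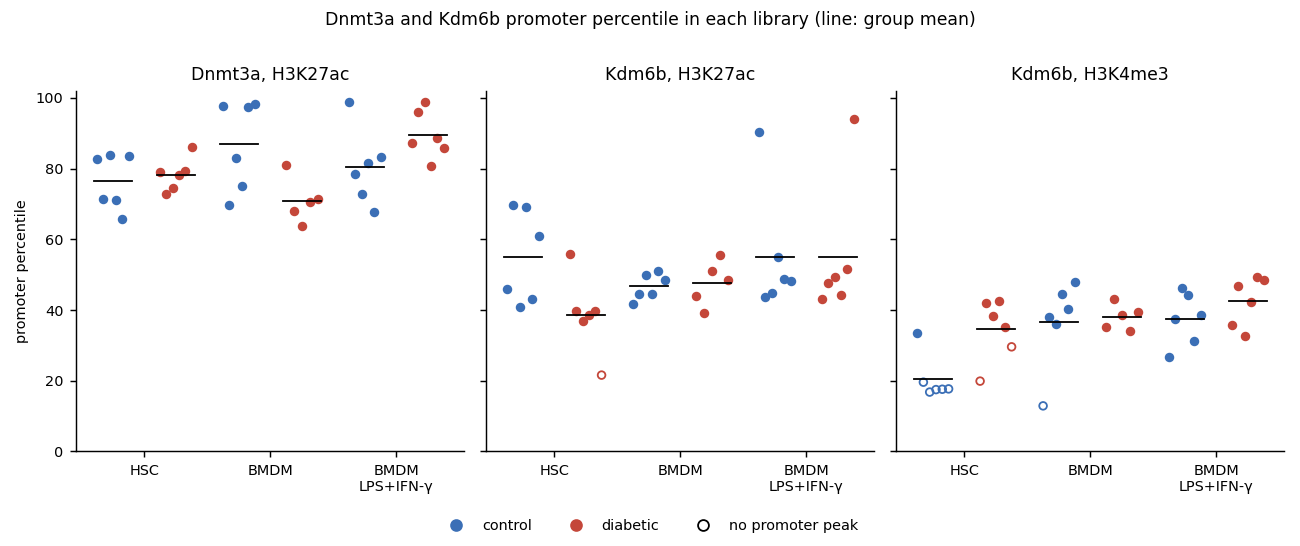
Promoter percentile (vertical axis) of Dnmt3a for H3K27ac and of Kdm6b for both marks in each library of the 6 groups, control in blue and diabetic in red, open circles without a promoter peak, lines at the group mean. Dnmt3a stands at 63.8 to 81 in diabetic unstimulated BMDMs and at 80.7 to 99 after LPS+IFN-γ, and 5 of 6 control HSC libraries lack Kdm6b H3K4me3.

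In control BMDMs 0 of 59 genes passed for H3K27ac by limma, with 2 at an unadjusted p under 0.05, and 0% of all genes did. The lowest p belonged to Hdac5, a class IIa deacetylase (−12.2 ± 3.64, adjusted p = 0.862), and to the NAD-dependent deacetylase Sirt1 (−12.1 ± 3.91, 0.936). Without the 3 atypical libraries these were −15 (0.114) and −13.5 (0.22). For H3K4me3, 0 passed in control BMDMs (5 at an unadjusted p under 0.05; 0% of all genes) and 0 in diabetic BMDMs (1 at an unadjusted p under 0.05; 0% of all genes). The members of lowest p were Kmt2c and Kdm2b in control BMDMs, at 13.7 and 11.6 points, and Eed and Kat5 in diabetic BMDMs, at 18 and 17.1. The response in diabetic minus that in control BMDMs passed at 0 members for either mark (0% of all genes for each; 2 members at an unadjusted p under 0.05 for each). Its lowest p belonged to Dnmt3a for H3K27ac (25.1 ± 6.79, limma adjusted p = 0.662, and 17 with an adjusted p = 0.96 without the 3 atypical libraries), followed by Kat5 (7.27), and to Dnmt3a (20.2) and Kat5 (24.4) for H3K4me3.

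Kdm6b, for which LPS induction in macrophages is well known, ranked low after LPS+IFN-γ in all but 1 library of each stimulated group. Control stimulated replicate 1 stood at 90.3 and the other 5 at 43.6 to 55.1, and diabetic stimulated replicate 6 at 94.1 and the other 5 at 43 to 51.5. Unstimulated libraries ran from 41.8 to 51 in control and from 39.1 to 55.7 in diabetic mice. The differences after stimulation were 8.4 ± 6.98 points in control and 7.26 ± 7.32 in diabetic BMDMs (limma adjusted p = 0.967 and 0.636).

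The last comparisons asked whether diabetes altered the marks at enzyme promoters within a cell type. By limma, 0 of 59 members passed in HSCs, in unstimulated BMDMs and in stimulated BMDMs, for H3K27ac (0%, 0% and 0% of all genes) and for H3K4me3 (0%, 0% and 0%). At an unadjusted p under 0.05 there were 1, 4 and 0 members for H3K27ac and 3, 2 and 0 for H3K4me3. The median SE of a member's difference was 3.62 to 3.8 points for H3K27ac and 6.97 to 7.31 for H3K4me3. With this spread, differences of a few points were not detectable, and much larger ones did not pass either. The largest falls in HSCs, −16.2 points for H3K27ac and −20 for H3K4me3, were among those that did not pass. The counts of 0 therefore do not exclude differences of that size. The HSC-BMDM difference in diabetic minus that in control mice also passed at 0 members, for H3K27ac (0% of all genes; 1 member at an unadjusted p under 0.05) and for H3K4me3 (0.0113%; 2 members), and the lowest p belonged to Dnmt3a (17.9 ± 6.79) and Carm1 (9.71) for H3K27ac and to Kat5 (31.5) and Suv39h2 (−14.1) for H3K4me3.

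In HSCs the members of lowest p were Kdm6b and Kmt2d for H3K27ac and Kdm6b and Kdm1a for H3K4me3. Kdm6b H3K27ac ran from 41 over 53.4 to 69.7 in control and from 21.6 over 39 to 55.9 in diabetic HSCs (−16.2 ± 6.98, limma adjusted p = 1), and the groups overlapped. Its H3K4me3 moved the other way, from 16.8 over 17.7 to 33.6 up to 19.9 over 36.7 to 42.7 (14.1 ± 5.18, adjusted p = 0.999), with a peak in 1 of 6 control and 4 of 6 diabetic libraries (Fisher's exact test, two-sided, p = 0.242, adjusted p = 1, in a comparison where 0% of 1151 genes passed). The percentile of an absent peak differs between these H3K4me3 libraries. In diabetic HSC replicate 6, 40.8% of genes had a peak, against 60.8% to 72.1% in control HSC libraries. How much of the Kdm6b difference in percentile this makes up was not tested. Kmt2d differed by −5.26 points for H3K27ac and Kdm1a, a demethylase of H3K4, by −20 ± 7.85 for H3K4me3. One of the 6 diabetic H3K4me3 libraries, replicate 6, lacked a Kdm1a peak.

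In unstimulated BMDMs the lowest p for H3K27ac belonged to Dnmt3a (−15.9 ± 4.92, limma adjusted p = 0.794, and −10.4 with an adjusted p = 0.928 without the 3 atypical libraries), whose values by replicate are given above, and Kat6a (−10.2 ± 3.62). For H3K4me3 they were Ezh1, the PRC2 methyltransferase of resting cells, and Kat5 (−18 ± 8.66). Ezh1 ran from 93 over 97.4 to 99.9 in control and from 62 over 81.6 to 87.2 in diabetic libraries, so no libraries overlapped, with a difference of −18.4 ± 6.03 and an adjusted p of 1. Prmt1, the main asymmetric arginine methyltransferase, was the other member whose groups were apart, at 58.5 over 63.5 to 68 in control and 70.3 over 75.2 to 91.6 in diabetic libraries. Such separation was found at 0.266% of all genes. In stimulated BMDMs the lowest p belonged to Dnmt3a (9.15) and Prmt5 (10) for H3K27ac and to Kmt2d (12.2) and Setdb1 (13.2) for H3K4me3.

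Enzymes with known links to blood cells or to glucose are given here in every group. Ezh2, the PRC2 methyltransferase of dividing cells, had H3K27ac percentiles of 96.0 ± 3.05 (SD, n = 6) in control and 95.2 ± 3.09 in diabetic HSCs, 88.0 ± 6.84 and 88.5 ± 5.81 in unstimulated BMDMs, and 87.2 ± 5.67 and 88.9 ± 6.54 after LPS+IFN-γ. Setd7, an H3K4 monomethyltransferase tied to memory of high glucose in vascular cells, stood at 84.6 ± 7.19 and 87 ± 4.29, 83 ± 3.98 and 90.3 ± 4.51, and 85.7 ± 3.21 and 85.3 ± 7.69 in the same order. Setd7 was 7.27 ± 3.36 points higher in diabetic than control unstimulated BMDMs (limma adjusted p = 0.829), which did not pass.

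Hdac5, which responds to metabolic signals by leaving the nucleus, stood at 90.5 ± 7.09 and 93.5 ± 3.85 in HSCs, 90.4 ± 5.3 and 92.8 ± 3.8 in unstimulated BMDMs and 78.2 ± 9.51 and 84.7 ± 7.52 after stimulation. Kat2b stood at 83.3 ± 5.13 and 84.6 ± 4.2, 79.9 ± 10.1 and 82.6 ± 10.9, and 78.8 ± 7.2 and 74.2 ± 10.1. Tet2 stood at 81.2 ± 5.18 and 81.4 ± 8.96, 91.4 ± 6.2 and 91.6 ± 3.46, and 88.6 ± 7.8 and 87.6 ± 3.07, so its cell type difference was the same size in control and diabetic mice. For H3K4me3, group means of these 4 genes and Ezh2 lay between 72.6 and 95.1.

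The partners and relatives of these enzymes, 100 further genes in 11 lists such as COMPASS subunits, bromodomain readers and other deacetylases, gave shares near those of all genes. For H3K27ac between HSCs and unstimulated BMDMs, 13 of 100 passed in control mice (10 higher in HSCs, 3 lower) and 12 in diabetic mice (7 higher, 5 lower), beside the 15.5% and 15.3% of all genes given above. Among those passing in both were Clock, the circadian factor with acetyltransferase activity (−28.6 ± 2.88 and −30.7 ± 3.02 points), the deacetylase Hdac10 (17.7 and 18.2), the demethylase Phf8 (14 and 15.3) and the dioxygenase Jmjd6 (12.9 and 13.8). After LPS+IFN-γ in diabetic BMDMs, 2 passed, both lower, the corepressor subunit Sin3a (−12.8) and the Polycomb subunit Rybp (−16.7). For H3K4me3, 2 passed between control HSCs and BMDMs, the reader Brd1 higher in HSCs (25.5) and the mitochondrial sirtuin Sirt4 lower (−18.7).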

How the data were processed

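ChIP-seq peak lists of H3K27ac and H3K4me3 (35 libraries each) were analysed; 36 input samples were not used here. Per the labels and processing notes, the authors trimmed single-end reads (Trim Galore 0.3.3, cutadapt 1.8, FastQC 0.11.3), aligned them to GRCm38 with Bowtie2 2.2.6, marked duplicates (Picard 2.18.14 and 2.19.2), used bedtools 2.19.1 and called peaks for each sample with MACS2 2.2.7.1. The deposited lists give each summit a fold enrichment (a ratio over background), and the p-value and q-value as −log10. No read counts were used, so depth is unknown, and list length stands in its place.

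Summits of a shared interval were merged, giving 7828714 peaks from 9511856 summits. For each of 21938 protein-coding genes (93513 start sites, GENCODE M21), the largest −log10 p within 1000 bp of any start site was ranked within its list. Percentiles were compared with limma 3.58.1 (R 4.3.3; empirical Bayes with trend) over 35 libraries and 6 group means for each mark, with a peak required in 3 libraries (17373 genes for H3K27ac and 17652 for H3K4me3) and Benjamini-Hochberg adjustment over all genes at 0.05. Start sites less than 2000 bp apart formed 44473 windows, and the same model was used for windows and for gene bodies. Presence of single promoters was compared with Fisher's exact test. Values were tabulated in Python 3.11.15, pandas 2.3.3, numpy 2.4.6 and scipy 1.17.1, with the R package data.table (version 1.17.8). The limma fit of gene promoters and Fisher's exact test were tried on simulated data.

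Members, lists and tests were chosen with earlier results of these data known. Genes were named if they lacked a promoter peak in a library, passed a test (up to 12 for each cell type comparison, by size), had the lowest p (2 where none passed), stood among the 3 highest or lowest for a mark, or were among Kdm6b, Ezh2, Dnmt3a, Tet2, Hdac5, Setd7 and Kat2b. Alternatives were ranks on fold or among all peaks, a promoter of 500 bp, a q-value of 0.01, no filter, only the groups compared, lists of equal length (13730 peaks, or 51162 for H3K27ac windows), an exact permutation test, a replicate block, and leaving out replicates, 3 H3K27ac libraries that stood apart in a check of the stimulation labels or 4 H3K4me3 libraries of unclear scaling. Across 14 comparisons, deviations of same-numbered libraries correlated at −0.29 to 0.363, and in 0 of them did every pair exceed 0.1, so replicate numbers were not taken as pairs.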

Additional observations from a re-analysis of the deposited data

Results flagged for a closer look

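Among 108 sets of libraries read (a quantity in a group), 20 held a library set apart from the rest of its group by Dixon's test, where chance alone gives about 1 in 20. That rate does not hold for 5 of them, counts in which 1 library differed from others that were tied. For H3K27ac the number of the 59 enzyme genes with a promoter peak was 58 where the group median was 59, in control HSC replicate 1, diabetic HSC replicate 6, diabetic unstimulated BMDM replicate 4 and control LPS+IFN-γ replicate 3. For H3K4me3 it was 48 in diabetic HSC replicate 6 (median 58.5) and 57 in control LPS+IFN-γ replicate 3 (median 59). The median percentile of the enzyme genes for H3K4me3 was 84.9 in diabetic LPS+IFN-γ replicate 5, against a group median of 77.7.

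Single genes were set apart in other libraries. For H3K27ac, Hdac9 stood at 16.6 in control HSC replicate 1 (median 43.8), 56.8 in diabetic HSC replicate 1 (median 42.8) and 39.6 in diabetic unstimulated BMDM replicate 2 (median 52.7). Kat7 stood at 89.9 in control HSC replicate 1 (median 94.9) and Kat5 at 98.5 in diabetic HSC replicate 1 (median 99.8). Nsd1 stood at 92.9 in diabetic HSC replicate 4 (median 97.2) and at 72.7 in control unstimulated BMDM replicate 1 (median 87.2). Tet3 stood at 68.4 in diabetic HSC replicate 5 (median 88) and Tet2 at 81.7 in diabetic LPS+IFN-γ replicate 2 (median 88.6).

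Kdm6b was set apart in 4 groups. For H3K27ac it stood at 90.3 in control LPS+IFN-γ replicate 1 and at 94.1 in diabetic LPS+IFN-γ replicate 6, where the median of either group was 48.5. For H3K4me3 it stood at 33.6 in control HSC replicate 1 (median 17.7), the library of that group with a peak, and at 12.9 in control unstimulated BMDM replicate 1 (median 39.2), the library without one.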

How the results depend on the processing

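For H3K27ac between HSCs and BMDMs, the 7 genes that passed in control mice became 3 with ranks on fold, 0 with ranks among all peaks, 4 by the exact permutation test and 4 with the replicate block, and the 6 in diabetic mice became 1 on fold and 3 among all peaks. The single stimulated gene, Dnmt3a, gave 0 on fold, 0 among all peaks, 0 by the exact permutation test, 0 with the replicate block and 2 without the 3 atypical libraries. For H3K4me3 in control mice, 1 became 0 on fold, 3 among all peaks, 2 without the filter and 0 by the exact permutation test. The 46 genes with H3K4me3 in every library became 29 with lists of equal length. The 24 H3K27ac windows in control mice became 13 with the replicate block and 15 without the 3 libraries, and the 15 in diabetic mice 7 with the replicate block. The stimulated window count of 1 became 3 with equal lists, 0 with the replicate block and 2 without the 3 libraries. The 8 H3K4me3 windows became 1 with equal lists, 2 with the replicate block and 2 without the 4 libraries of unclear scaling. At the Dnmt3a window 3894824, the H3K4me3 difference of −25.5 turned to 0.461 with equal lists. The 12 gene bodies in diabetic mice became 6 over only the groups compared, 7 with equal lists and 3 with the replicate block. The exact permutation test gives only coarse p-values with 5 or 6 libraries a group, so its counts of 0 say nothing on stability. The cause was not tested, and with equal lists fewer peaks enter. The labels do not say whether same-numbered libraries share an animal, so it is not known whether the block values are the better ones. Over all comparisons, 18 of 78 pairs correlated best with their own number. For H3K27ac, pairs correlated at 0.024 to 0.354 between stimulated and unstimulated diabetic BMDMs, and at −0.29 to 0.244 between control HSCs and BMDMs.

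Leaving out 1 replicate gave 0 to 2 genes for stimulated diabetic BMDMs, 5 to 9 and 3 to 6 for H3K27ac between cell types in control and diabetic mice, and 0 to 2 and 0 to 1 for H3K4me3. The diabetic H3K27ac count was 3 without unstimulated replicate 1 or 2 or HSC replicate 6. Windows ranged over 16 to 24, 12 to 17 and 0 to 2 for H3K27ac and over 2 to 11 and 0 to 1 for H3K4me3, where control unstimulated replicate 2 left 2. Gene bodies ranged over 3 to 6, 8 to 13 and 0 to 1, and genes marked in every library over 55 to 56 and 46 to 55, the latter without diabetic HSC replicate 6. All other counts stayed at 0. The gene that passed under every alternative, 20 of 20, was Kat6a in diabetic mice (highest adjusted p 0.0292).

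These lists hold no read totals, so weak marks in short lists cannot be told from absent ones, and percentiles near the top of the scale compress differences. The alternatives for windows and gene bodies were chosen after seeing the data.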
